A study of Mus musculus with 8 samples.

Results

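The 10 glycolytic isoenzyme genes Aldoa, Aldoc, Eno1, Eno2, Ldha, Ldhb, Pfkm, Pfkl, Pfkp and Pkm were taken from whole-brain bulk RNA-seq by an exact match of the gene symbol. All 10 were found among 24343 genes, with 21 of 34535 RefSeq transcripts. They encode the isoenzymes of 5 steps of glycolysis, namely phosphofructokinase, aldolase, enolase, pyruvate kinase and lactate dehydrogenase.

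The RNA came from whole brains of 3 mice of the strain C57BL/6NCrl, 56 to 62 days of age, kept on a light/dark cycle with free access to food and water. Mice 1 and 2 gave 3 libraries each and mouse 3 gave 2 libraries, under a single condition. Neither the sex of each mouse nor what the library numbers stand for was given, so libraries of a mouse may be technical repeats. Levels are given in FPKM, fragments scaled to transcript length and library size, summed over the transcripts of a gene. Each mean ± SD is over the means of 3 mice, and a test between mice uses the 8 libraries and describes these 3 animals only. Read depth on transcripts, taken as coverage times length, was 1.31 to 2.02 gigabases, and library 1 of mouse 2 was the shallowest. That library had the lowest Aldoa, Aldoc, Eno1, Ldha and Ldhb values. Without it the means of Aldoa, Eno1, Ldha and Ldhb were 719, 255, 116 and 368 FPKM. In whole-brain RNA, fewer cells of a type and less RNA per cell cannot be told apart.

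Glycolysis splits glucose into pyruvate, and the brain depends heavily on glucose as fuel. For many of its steps the genome holds several genes whose products catalyse the same reaction but differ in kinetics, regulation and cell type. Textbook examples in brain are aldolase C (Aldoc) of astrocytes and of stripes of cerebellar Purkinje cells, the gamma enolase of neurons (Eno2), and the alternative M1 and M2 exons of pyruvate kinase. Lactate dehydrogenase is a tetramer of A and B chains, encoded by Ldha and Ldhb, that interconverts pyruvate and lactate.

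The pyruvate kinase gene Pkm makes M1 and M2 through a choice between neighbouring exons, which are shown because the transcripts counted here differ in them. On GRCm38 the M1 exon lies at chr9:59675029-59675195 and the M2 exon at chr9:59675568-59675734, both on the plus strand. Each is 167 nucleotides long, is coding throughout and is exon 9 of 11 in its transcript, and the transcripts share 8 exons. The exon sequences, taken from the GENCODE annotation, differ at 64 positions and are the same at 103 (61.7% identical). Capitals mark the positions that differ.
Pkm M1 exon: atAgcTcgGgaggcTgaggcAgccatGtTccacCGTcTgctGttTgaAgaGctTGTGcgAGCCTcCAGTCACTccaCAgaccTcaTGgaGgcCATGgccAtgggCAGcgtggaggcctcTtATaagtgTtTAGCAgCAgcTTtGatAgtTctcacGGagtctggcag
Pkm M2 exon: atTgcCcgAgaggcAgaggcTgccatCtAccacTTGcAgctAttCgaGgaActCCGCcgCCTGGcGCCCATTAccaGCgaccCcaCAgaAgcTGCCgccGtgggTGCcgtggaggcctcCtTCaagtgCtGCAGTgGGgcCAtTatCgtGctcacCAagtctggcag

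Aldoa and Ldha start at several sites with very different levels, so the 250 bases before a high and a low start of each gene are shown, from RefSeq on GRCm38.p6. Aldoa lies on the minus strand, and the window of its main transcript, NM_007438, is chr7:126799255-126799504. That of NM_001177308, which starts farther upstream, is chr7:126800448-126800697. The windows of Ldha, on the plus strand, are chr7:46845554-46845803 for NM_010699 and chr7:46846832-46847081 for NM_001136069. Capitals mark GC boxes (GGGCGG, bound by Sp factors) and the hypoxia response element core (ACGTG, bound by HIF factors), each searched on both strands and given 5′ to 3′ in the direction of the gene. Neighbouring or overlapping matches appear as a single run of capitals.
Aldoa NM_007438 start: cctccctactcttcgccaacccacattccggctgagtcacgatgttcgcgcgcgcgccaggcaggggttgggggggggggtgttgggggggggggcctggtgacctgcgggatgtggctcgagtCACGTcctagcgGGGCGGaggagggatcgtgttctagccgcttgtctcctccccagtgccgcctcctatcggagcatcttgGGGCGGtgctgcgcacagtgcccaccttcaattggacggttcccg
Aldoa NM_001177308 start: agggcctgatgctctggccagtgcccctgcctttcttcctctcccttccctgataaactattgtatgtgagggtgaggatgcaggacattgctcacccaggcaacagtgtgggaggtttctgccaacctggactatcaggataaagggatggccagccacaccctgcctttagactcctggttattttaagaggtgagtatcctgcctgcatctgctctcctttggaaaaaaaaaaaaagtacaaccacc
Ldha NM_010699 start: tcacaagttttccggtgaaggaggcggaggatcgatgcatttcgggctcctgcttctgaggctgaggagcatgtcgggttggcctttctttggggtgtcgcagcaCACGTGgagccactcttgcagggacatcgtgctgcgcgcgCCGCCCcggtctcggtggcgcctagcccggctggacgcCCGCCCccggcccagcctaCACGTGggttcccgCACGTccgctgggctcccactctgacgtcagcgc
Ldha NM_001136069 start: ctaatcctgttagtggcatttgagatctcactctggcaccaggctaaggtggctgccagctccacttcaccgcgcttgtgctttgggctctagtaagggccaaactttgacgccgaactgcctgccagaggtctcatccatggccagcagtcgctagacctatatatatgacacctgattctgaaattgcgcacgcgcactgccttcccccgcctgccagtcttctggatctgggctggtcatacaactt

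The windows before the main Aldoa and Ldha starts were rich in CG dinucleotides, whereas those before the main Aldoc and Pfkm starts held 5 and 6. The Aldoa window of NM_007438 held 21 CG dinucleotides, 2 GC boxes and 1 hypoxia core, whereas the window of NM_001177308 held 0 of each. The Ldha window of NM_010699 held 25 CG dinucleotides, 2 GC boxes and 5 hypoxia cores, against 9, 0 and 0 for NM_001136069. The run CACGTG holds the hypoxia core on both strands and was counted on each. Over 32851 RefSeq windows of the same length the median was 6 CG dinucleotides, 32.7% held a GC box, 16.6% a hypoxia core and 12.4% the TATA box TATAAA. Among 20 windows of the 10 genes, 14 ended within 5 bases of the start of a transcript in the table. Of the 20 windows, 8 held a GC box, 6 held a hypoxia core and 1, that of Eno2, held TATAAA. Some windows of a gene overlap, as for Aldoa and Eno1, and a motif they share is counted in each. A match of letters is a description and not a binding site.

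The levels of the 10 genes spanned a wide range, with aldolase A at the top and the liver-type phosphofructokinase at the bottom. Aldoa had a mean of 705 ± 43.8 FPKM (SD, n = 3 mice) and rank 35 among all genes. Ldhb followed at 361 ± 77.8, Pkm at 358 ± 34.8 and Aldoc at 346 ± 139 FPKM. The enolase genes Eno1 and Eno2 stood at 247 ± 15.9 and 222 ± 30.9 FPKM. Ldha was at 113 ± 10.1 and Pfkm at 112 ± 8.89 FPKM, and the remaining phosphofructokinase genes Pfkp and Pfkl were at 44.8 ± 5.71 and 24.4 ± 3.09 FPKM, with ranks 1449 and 2764. Of the 9 pairs of neighbours in this order, 4 had library ranges that did not overlap, namely Aldoa above Ldhb, Eno2 above Ldha, Pfkm above Pfkp, and Pfkp above Pfkl. The neighbours among Ldhb, Pkm, Aldoc, Eno1 and Eno2, and Ldha and Pfkm, had library ranges that overlapped. Compared within each library, Ldhb was above Pkm in 2 of 8, both of mouse 3, and Ldha above Pfkm in 3. Pkm was above Aldoc in 6, Aldoc above Eno1 in 7 and Eno1 above Eno2 in 6. The order of the means is thus not that of most libraries for Ldhb and Pkm or for Ldha and Pfkm.

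**Figure D1:**
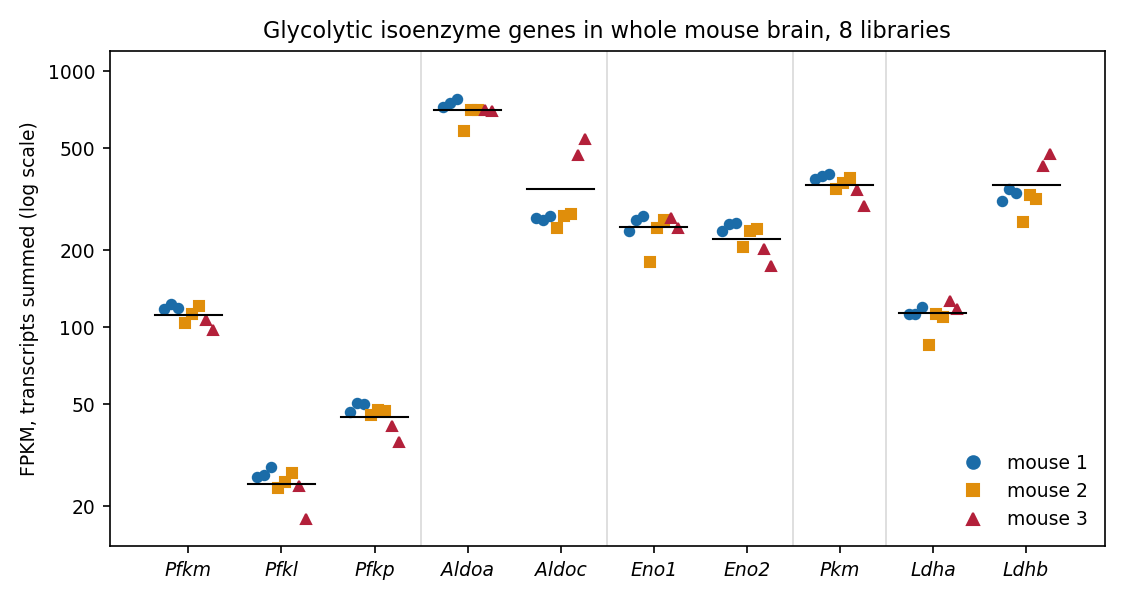
FPKM of each gene, transcripts summed, in the 8 libraries on a log axis, with the genes in the order of the pathway. Each point is a library, marked by mouse, and the black line is the mean of the 3 mouse means. Aldoa lies highest, at 583 to 777 FPKM, and Pfkl lowest, at 17.9 to 28.5 FPKM, and the triangles of mouse 3 lie above the other points for Aldoc and Ldhb.

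Set in the pathway, the isoenzyme genes carried steps of very different abundance. Summed over all genes listed for a step, aldolase reached 1052 ± 141 FPKM and was second to GAPDH (glyceraldehyde 3-phosphate dehydrogenase) at 1207 ± 77.8 FPKM. Enolase reached 527 ± 38.1, lactate dehydrogenase 474 ± 87.0 and pyruvate kinase 358 ± 34.8 FPKM. Phosphofructokinase, which makes the committed step, summed to 181 ± 17.6 FPKM, and the hexokinase step (70.5 ± 10.8) and glucose phosphate isomerase (139 ± 5.95) were the steps below it. The 10 genes supplied nearly all of the summed FPKM of their 5 steps apart from enolase, where they supplied 88.8%. The rest of the enolase sum was mainly Eno1b.

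Genes of these families known from other tissues had low levels. Pklr, the pyruvate kinase of liver and red cells, had 0.0755 FPKM and Ldhc, the testis lactate dehydrogenase, 0.00609 FPKM. Eno3, the muscle enolase, had 2.86 FPKM. Eno1b, a near-identical copy of Eno1, was listed at 48.6 to 60.5 FPKM in the libraries, and its split from Eno1 is uncertain because the sequences are so alike. A second Eno1b transcript, placed by the table within the Eno1 locus, was at most 0.000189 FPKM. The copies Aldoart1 and Ldhal6b reached at most 0.193 and 0.289 FPKM, and Aldoart2 had 5.43 FPKM in library 1 of mouse 2 and no more than 0.0256 FPKM in the others.

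**Figure D2:**
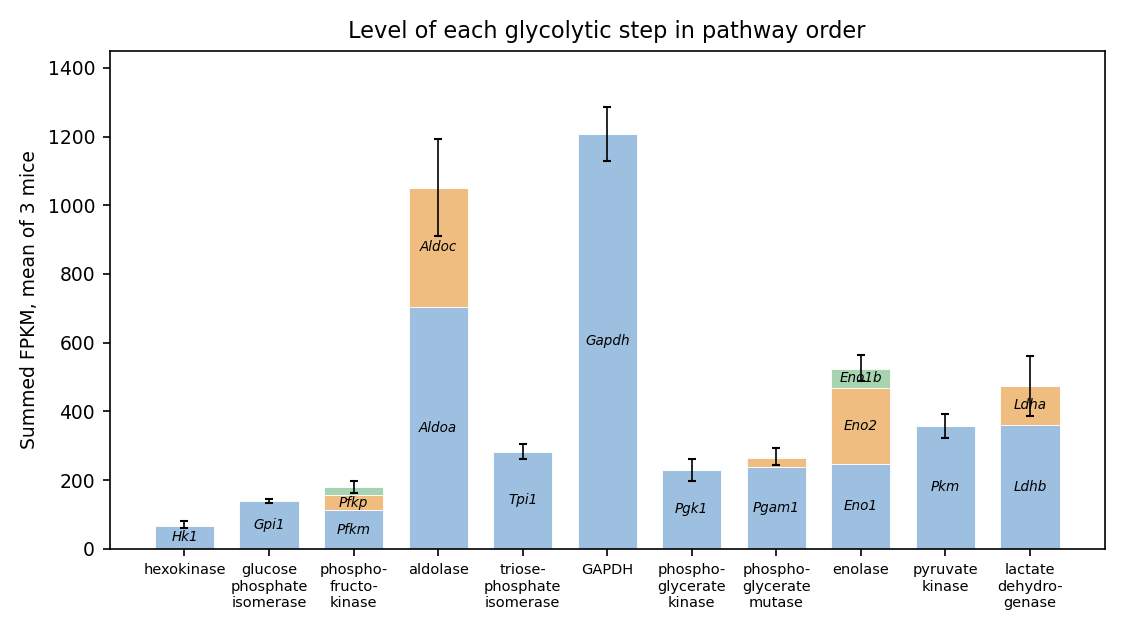
Summed FPKM of the genes of each glycolytic step, in pathway order, as the mean of 3 mice. Bars are stacked by gene, with the larger contributions named, and error bars are the SD between mice of the sum. Aldolase (1052 FPKM) and GAPDH (1207 FPKM) are the tallest bars and hexokinase (70.5 FPKM) the lowest.

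Phosphofructokinase is a tetramer of muscle (M), liver (L) and platelet (P) chains, and the muscle-type gene led in every library. Pfkm was at 118, 123 and 119 FPKM in mouse 1, at 104, 113 and 121 FPKM in mouse 2 and at 107 and 97.8 FPKM in mouse 3. Pfkp was at 46.9, 50.6 and 50.3 FPKM in mouse 1, at 45.4, 47.7 and 47.0 FPKM in mouse 2 and at 41.1 and 35.6 FPKM in mouse 3. The mouse 3 libraries were the lowest for Pfkp, whereas for Pfkm they overlapped with mouse 2. Pfkl was at 26.0, 26.5 and 28.5 FPKM in mouse 1, at 23.6, 24.9 and 26.9 FPKM in mouse 2 and at 24.1 and 17.9 FPKM in mouse 3. Pfkm made up 61.9% ± 1.33 of the summed FPKM of the family, Pfkp 24.7% ± 0.880 and Pfkl 13.4% ± 0.459 (SD, n = 3 mice). These shares were the steadiest of the 5 steps, and Pfkm was the highest, Pfkp the next and Pfkl the lowest in all 8 libraries.

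Nearly all of the Pfkm level was assigned to a single start. NM_001163487 had 110 FPKM (98.3% of the gene), while NM_021514, which starts downstream of it, had 0.799 FPKM. NM_001163488, which starts upstream of both, was at 0.314 to 0.724 FPKM in the libraries of mice 1 and 2 and at 3.47 and 1.18 FPKM in mouse 3. Pfkp had a second transcript at 0.563 FPKM, and Pfkl has a single transcript in the table.

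Aldolase cleaves fructose 1,6-bisphosphate, and the aldolase A gene exceeded the aldolase C gene in each library. Aldoa was at 726, 752 and 777 FPKM in mouse 1, at 583, 706 and 705 FPKM in mouse 2 and at 703 and 696 FPKM in mouse 3. Aldoc was at 267, 262 and 273 FPKM in mouse 1, at 245, 271 and 277 FPKM in mouse 2 and at 471 and 541 FPKM in mouse 3. The Aldoa levels of mouse 3 lay among those of the other mice, whereas both Aldoc levels of mouse 3 lay above all 6 others. Aldoc was therefore 0.348 to 0.419 times as high as Aldoa in mice 1 and 2, and 0.670 and 0.778 times as high in mouse 3. The share of Aldoc in the pair averaged 32.2% ± 8.49 (SD, n = 3 mice). The test of the ratio among the 3 mice gave an exact permutation p = 0.00357 over 560 assignments of the libraries (the smallest this design allows, adjusted p = 0.025 over 7 ratios). It takes in any difference among the mice, and mice 1 and 2 were also apart, with log2 ratios of -1.52 to -1.44 and -1.38 to -1.25. The difference of mouse 3 from the mean of mice 1 and 2 was 0.94 on the log2 scale. With a library left out the difference was 0.83 to 1.05 with adjusted p-values of 0.0333 to 0.1 in these smaller designs.

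Aldoa transcripts from its several starts had very different levels. NM_007438 had 568 ± 36.1 FPKM or 80.4% of the gene, and NM_001177308, with no CG in its window, had 130.1 ± 7.45 FPKM or 18.5%. Another start, NM_001177307, had 7.30 FPKM, and its window held 19 CG dinucleotides, 3 GC boxes and 1 hypoxia core. This window overlaps most of that of NM_007438 and shares its hypoxia core and GC boxes, so it is not a separate promoter sequence. The share of NM_001177308 was 15.9% to 22.3% over the libraries, and its means in the 3 mice, 18.3%, 18.7% and 18.5%, were nearly equal. For Aldoc, NM_001303423 had 91.2% ± 0.727 and NM_009657 8.78% of the FPKM. Both Aldoc transcripts were highest in the mouse 3 libraries, at 431 and 483 FPKM for the first and 39.6 and 58.4 FPKM for the second.

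Enolase makes phosphoenolpyruvate, and the ubiquitous alpha enolase gene and the neuronal gamma enolase gene had near-equal levels. Eno1 was at 237, 262 and 273 FPKM in mouse 1, at 179, 245 and 261 FPKM in mouse 2 and at 267 and 243 FPKM in mouse 3. Eno2 was at 237, 254 and 255 FPKM in mouse 1, at 206, 237 and 242 FPKM in mouse 2 and at 202 and 174 FPKM in mouse 3. Both Eno2 levels of mouse 3 were below all others, and the Eno1 levels overlapped. Eno2 made up 47.3% ± 4.24 of the pair (SD, n = 3 mice), with 48.1% to 53.4% in mice 1 and 2 and with 43.1% and 41.7% in mouse 3. The mean log2 ratio of Eno2 to Eno1 was -0.16, and -0.45 with Eno1b counted with Eno1, a setting chosen after the values were seen. In the test between mice the Eno2 to Eno1 ratio did not pass (exact permutation p = 0.0321, adjusted p = 0.0563 over 7 ratios). Eno2 was mainly NM_013509 (96.8% of its FPKM), and Eno1 has a single transcript in the table.

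Pyruvate kinase forms pyruvate and ATP, and the Pkm gene gave mainly the M1 transcript that carries the first of the exons printed above. M1 is the form of adult brain and muscle, and M2 that of embryonic and proliferating cells. The whole gene was at 380.3, 389 and 398 FPKM in mouse 1, at 345, 365 and 383 FPKM in mouse 2 and at 344 and 296 FPKM in mouse 3. M1 was at 330.2, 342 and 340.2 FPKM in mouse 1, at 291, 316 and 336 FPKM in mouse 2 and at 284 and 227 FPKM in mouse 3. M2 was at 50.1, 46.7 and 57.4 FPKM in mouse 1, at 54.1, 49.4 and 47.5 FPKM in mouse 2 and at 60.1 and 69.4 FPKM in mouse 3. Mouse 3 had the lowest values of M1 and the highest of M2. In all 8 libraries the lower confidence bound of M1 in the table was above the upper bound of M2. M1 made up 84.2% ± 4.0 of Pkm (SD, n = 3 mice), and M2 made up 12.0% to 15.7% in mice 1 and 2 and 17.4% and 23.4% in mouse 3. The log2 ratio of M1 to M2 averaged 2.45 (5.45-fold). The test among the 3 mice gave an exact permutation p = 0.0214 (adjusted p = 0.05 over 7 ratios, which is not under the threshold of 0.05). The difference of mouse 3 from the other mice was -0.71. It was -0.44 without library 2 of mouse 3 and -0.97 without its library 1.

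Among lactate dehydrogenase genes, the B chain gene led. Ldhb was at 312, 348 and 336 FPKM in mouse 1, at 258, 329 and 317 FPKM in mouse 2 and at 425 and 472 FPKM in mouse 3. Ldha was at 112, 113 and 120.1 FPKM in mouse 1, at 85.0, 112 and 109.9 FPKM in mouse 2 and at 127 and 118 FPKM in mouse 3. Ldhb of mouse 3 lay above all other libraries, and Ldha of mouse 3 overlapped with mouse 1. Ldhb was 2.78 to 4.0 times as high as Ldha in the 8 libraries, with a mean of 3.14-fold and a share of 75.8% ± 2.36 (SD, n = 3 mice). The log2 ratio of mouse 3 differed from that of the other mice by 0.33, and by 0.20 without library 2 of mouse 3. The test among the 3 mice gave an exact permutation p = 0.0214 (adjusted p = 0.05 over 7 ratios, again not under the threshold). Of Ldha, 95.6% was NM_010699 at 108 FPKM, which shares the window rich in hypoxia cores with the non-coding NR_102727 (4.89 FPKM). NM_001136069, whose window held none, was at most 0.571 FPKM. Ldhb was 96.4% NM_008492.

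**Figure D3:**
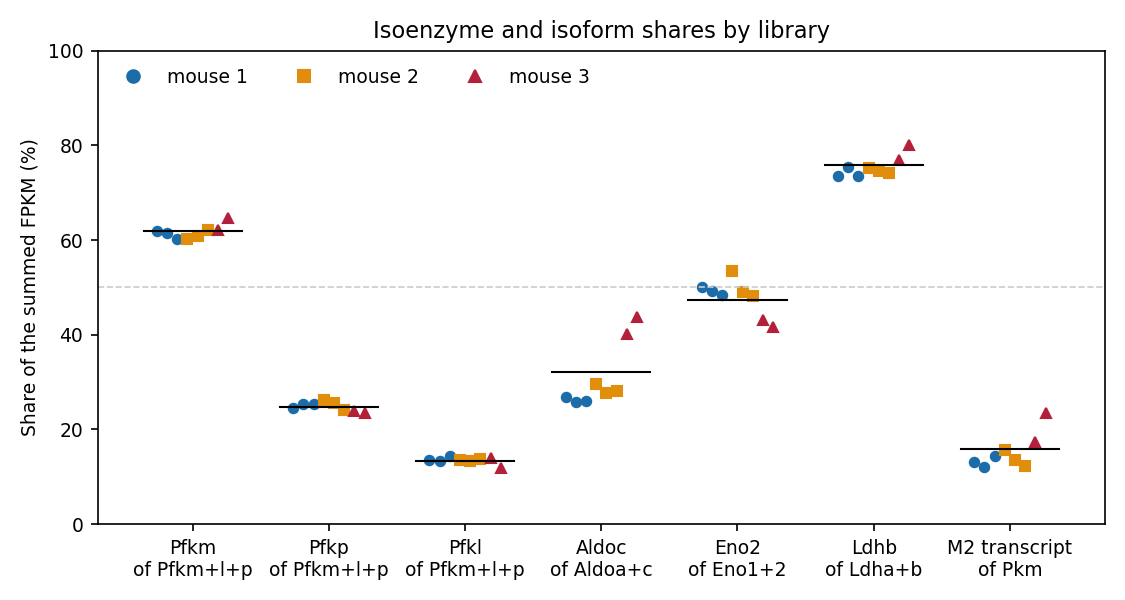
Share of the summed FPKM that each isoenzyme gene takes of its family, and that the M2 transcript takes of Pkm, in percent for each of the 8 libraries. Points are libraries marked by mouse, black lines are the means of the 3 mouse means, and the dashed line marks 50%. Pfkm, Pfkp and Pfkl keep narrow ranges, and the triangles of mouse 3 lie farthest from the other points for Aldoc (40.1% and 43.7%).

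**Figure D4:**
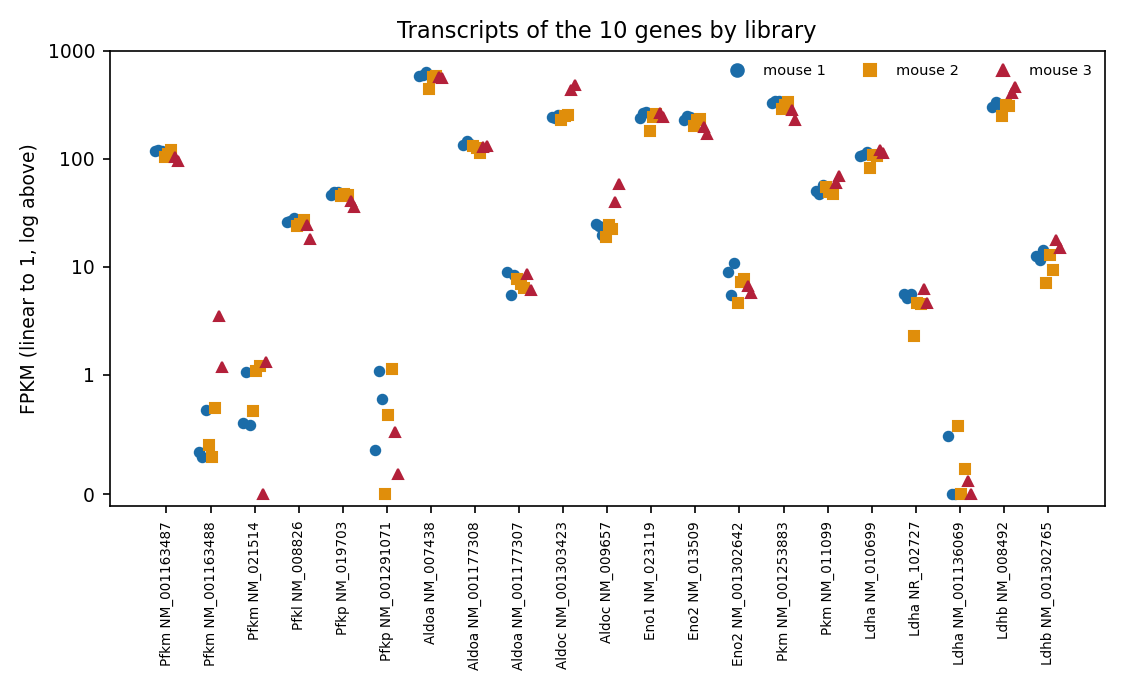
FPKM of the 21 transcripts in the 8 libraries, on an axis that is linear up to 1 FPKM and logarithmic above. Each point is a library, marked by mouse. Each gene has a leading transcript, and the lesser transcripts of Pfkm, of Pfkp and one of Ldha lie at 3.47 FPKM or less.

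Between the mice, 3 of the 10 genes were called different. Their mouse 3 libraries lay apart from all others, but so did those of Eno2 and Pkm, which were not called. For Pkm the gap was narrow, 344.4 FPKM in library 1 of mouse 3 against 345.0 FPKM in library 1 of mouse 2. The share of all genes with such a gap is not given, so the gap does not set the called genes off. Aldoc was higher in mouse 3 by 0.92 on the log2(FPKM + 1) scale (SE 0.09). Its adjusted p was 0.00359 (limma, moderated F-test among the 3 mice, Benjamini-Hochberg adjusted across 13001 genes). Each limma p-value here is of this test among the 3 mice and not of mouse 3 alone. Ldhb was higher by 0.51 (SE 0.11, limma adjusted p = 0.0244), and the difference of Pfkp was -0.32 (SE 0.08, limma adjusted p = 0.0324). Among all genes tested 26.9% were called, so that 3 of 10 is near the background. Eno2 missed the threshold with a difference of -0.34 (limma adjusted p = 0.0518), as did Pfkl at -0.31, Pkm at -0.24 and Pfkm at -0.18. Without library 2 of mouse 3 these were -0.11 for Pfkl, -0.13 for Pkm and -0.12 for Pfkm, and without its library 1 Pfkl was at -0.52. Aldoa at -0.01, Eno1 at 0.08 and Ldha at 0.18 differed least. Without library 2 of mouse 3 the calls fell to 1 of 10, that of Aldoc, and to 360 genes in all, and without any 1 library of mouse 1 Aldoc was likewise the single member called, with 1873 to 2090 genes in all. Without library 1 of mouse 3 the count rose to 5 of 10, with Eno2 and Pfkl added as lower, and to 3928 genes in all (30.2%). Without library 2 or 3 of mouse 2, Pfkp lost its call. Without a filter on low levels Ldhb lost its call (limma adjusted p = 0.0562). Eno2 gained a call as lower with a pseudocount of 0.1 (limma adjusted p = 0.0495), with a filter at 5 FPKM (0.0422) and without library 1 of mouse 2 (0.0173). Each of these settings called 4 of the 10 genes, beside 27%, 37.8% and 31.5% of all genes tested, in this order.

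The calls depended on how the libraries were scaled. The summed FPKM was 295541 to 345572 in mice 1 and 2 but 384885 and 409889 in mouse 3. After each library was set to equal sums, the median difference of all genes was -0.23 on the log2 scale, 43.9% of 12988 genes were called, and 7 of the 10 genes were called, with Aldoc higher in mouse 3 and Aldoa, Eno2, Pfkl, Pfkm, Pfkp and Pkm lower. Ldhb was not called there (difference 0.21, limma adjusted p = 0.0814). Once the dependence of a library on transcript length was taken out, 22.1% of genes and 5 of the 10 were called, with Aldoc higher in mouse 3 and Aldoa, Eno2, Pfkp and Pkm lower. The share of calls that were higher in mouse 3 was 55.9% with FPKM, 15.0% with equal sums and 52.8% with the trend removed. Relative to the median of all genes, Aldoc differed by 0.90, 0.85 and 0.92 and Eno2 by -0.36, -0.41 and -0.34 under FPKM, equal sums and trend removal, and Pkm by -0.26, -0.31 and -0.28. The corresponding values of Ldhb were 0.49, 0.44 and 0.20. Aldoc was the member called under all 3 scalings with a higher level in mouse 3, and Pfkp the one called under all 3 with a lower level.

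**Figure D5:**
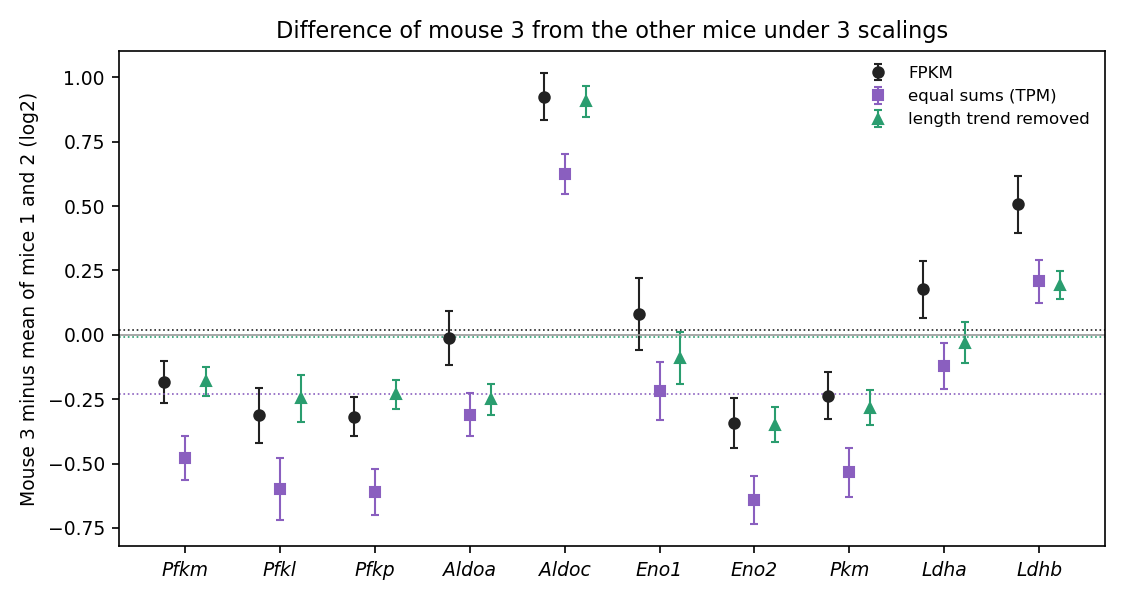
Difference of mouse 3 from the mean of mice 1 and 2 on the log2(value + 1) scale for each gene, with its SE from limma, under FPKM, equal library sums (TPM) and removal of the length trend. Dotted lines give the median difference of all genes in the same colours, -0.23 for equal sums and close to 0 otherwise. Aldoc lies above the rest under each scaling, at 0.92, 0.63 and 0.91.

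Markers of brain cell types differed beside these genes, and their part in the differences was not tested. All 6 astrocyte markers (Aqp4, Gja1, Slc1a2, Slc1a3, Gfap and Aldh1l1) were called higher in mouse 3, with a summed level of 568 to 616 FPKM in mice 1 and 2 and of 849 to 878 FPKM in mouse 3. With equal sums 1 of these 6 was called, and without library 2 of mouse 3, 2 of 6. Of 6 neuron markers, Rbfox3 and Syt1 were called lower in mouse 3, and the sum was 1801 to 1937 FPKM in mice 1 and 2 and 1602 and 1749 FPKM in mouse 3. The others were not called, with log2 differences of -0.12 for Snap25, -0.14 for Tubb3, 0.16 for Nefl and 0.04 for Stmn2. Snap25, at a mean of 1056 FPKM, made up most of the sum. With equal sums 5 of the 6 neuron markers were called lower. Of 5 oligodendrocyte markers, Mbp and Mobp were called higher, and the sum was 1990.4 to 2207 FPKM in mice 1 and 2 and 3881 and 4801 FPKM in mouse 3. Aldoc amounted to 42.1% to 47.2% of the astrocyte sum in mice 1 and 2 and to 53.7% and 63.8% in mouse 3. Eno2 amounted to 11.2% to 13.2% of the neuron sum in mice 1 and 2 and to 12.6% and 9.96% in mouse 3. Microglial markers summed to 88.5 to 116 FPKM with 2 of 5 called higher, endothelial markers to 32.8 to 54.8 FPKM with 0 of 4 called by limma and 1 of 4 at an unadjusted p under 0.05, blood markers to 529.6 to 897 FPKM with 1 of 5 called higher, and choroid plexus markers to 322 to 566 FPKM with 1 of 5 called lower. Under the brain label the neuron, astrocyte and oligodendrocyte markers thus had high sums, and the microglial sum was lower. In contrast, 6 skeletal muscle markers summed to 2.29 to 13.5 FPKM and 3 liver markers to 0.441 to 2.70 FPKM, with Alb at 0 in each library. In each of these lists 1 gene passed the filter, and 0 were called by limma, with 0 at an unadjusted p under 0.05.

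Among the other genes of the pathway, the share that differed between the mice lay below or above that of all genes according to the scaling, and the difference of the shares was not tested. Of 69 genes on the list 53 were tested and 9 were called (17.0%, against 26.9% of all genes), with 6 higher and 3 lower in mouse 3. Called higher were Bsg, the partner chain of lactate transporters (difference 0.44), Bpgm, which makes 2,3-bisphosphoglycerate (0.45), the mitochondrial pyruvate carrier genes Mpc1 (0.63) and Mpc2 (0.82), Pdk4, which inhibits pyruvate dehydrogenase (0.40), and Pygm, the muscle-type glycogen phosphorylase (0.62). Called lower were Hk1, the main brain hexokinase (-0.42), Dlat, a subunit of the pyruvate dehydrogenase complex (-0.35), and the inositol transporter Slc2a13 (-0.51). Their limma adjusted p-values lay between 0.00778 and 0.0450. Of the genes for NADH shuttles (7 tested), the pentose phosphate pathway (5), gluconeogenesis (3), the control of phosphofructokinase by fructose 2,6-bisphosphate (4) and the further genes of the 5 families (4), 0 were called by limma, and 2, 1, 1, 0 and 1 of them, in this order, had an unadjusted p under 0.05. With equal sums 27 of the 53 were called (50.9%, against 43.9%), 3 higher and 24 lower, and with the length trend removed 13 (24.5%, against 22.1%). The count was, without library 2 of mouse 3, 0 of 53 (9 at an unadjusted p under 0.05), and without any 1 library of mouse 1, 4 or 5 of 53.

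The glucose and lactate carriers and the enzymes that have a single main gene gave the levels around the isoenzymes. Slc2a1, the glucose transporter of the blood-brain barrier and glia, was at 28.6 ± 2.27 FPKM and Slc2a3, the neuronal one, at 28.7 ± 3.52 FPKM (SD, n = 3 mice). Hk1 supplied 95.2% of the hexokinase sum, and Hk2 had 0.908 FPKM. Of the bifunctional enzymes that make and remove fructose 2,6-bisphosphate, which activates phosphofructokinase, Pfkfb2 had 8.30, Pfkfb3 5.76 and Pfkfb4 2.5 FPKM, and Pfkfb1 had 0.209 FPKM.

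Across the 8 libraries the 10 genes fell into patterns that are given as a description, since libraries of a mouse share their source and all values share the library scaling. Pearson's r of log2(FPKM + 1) was 0.88 to 0.98 between any pair of Eno2, Pfkm, Pfkl, Pfkp and Pkm. Aldoc and Ldhb had r = 0.92, Aldoa and Eno1 r = 0.91, and Eno1 and Ldha r = 0.92. Aldoc and Pfkp ran opposite, with r = -0.90. Of 8785 other genes with at least 5 FPKM, Pea15a (r = 0.998) and Aldh1a1 (r = 0.997) were most like Aldoc, and Rbbp4 and Coq2 (0.996 and 0.993) most like Ldhb. The genes most like Eno2 were Ipo5 and Trim32, those most like Pkm were Olfm2 and Cpne5, and those most like Pfkm were Clec16a and Usp5, each with r between 0.98 and 1.00.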

How the data were processed

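Whole-brain bulk RNA-seq of 3 mice (8 libraries) was analysed. As the study's methods state, RNA with an integrity score above 8 was kept and libraries from a Kapa mRNA kit were sequenced on an Illumina instrument. The submitters' processing notes name TopHat, Cufflinks and mm10, with no version or role, and strand setting and read length are not given in the sources used here. The authors deposited FPKM for each RefSeq transcript, with confidence bounds, and read coverage per base, a signal that is not scaled for library size. The estimation split reads between transcripts of a gene, so single transcripts and near-identical copies are less certain than sums. Counting intervals could not be given from FPKM, and coverage times length gave 1.31 to 2.02 gigabases on transcripts per library. A failed status was given to 8 transcript values, 0 of them of the 10 genes.

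FPKM was summed over transcripts, averaged per mouse and then over mice. The 13001 genes that averaged 1 FPKM or more were compared between mice on log2(FPKM + 1) with limma 3.58.1 (moderated F-test, trended prior) in R 4.3.3, calling genes with a Benjamini-Hochberg adjusted p under 0.05. A fold change on this scale understates that of low genes. Log2 ratios within a family, without a pseudocount, were tested with a two-sided exact permutation F-test. The limma script was tested on simulated data. Promoter windows came from RefSeq (GRCm38.p6) for 10 of the 10 genes, and exons from GENCODE. The rule for named genes took the 10 genes and their transcripts, the pathway and marker lists, near-copies, and the 2 genes most like each by Pearson's r. The choice of these 10 genes, the lists and the alternatives was made with earlier results of these data known, and the rule itself used symbols and no values. Alternatives covered the pseudocount (0.1), low-level filters (none, 5 FPKM), equal library sums (TPM), removal of the length trend by a lowess fit (fraction 0.3), a constant prior, the highest transcript, a replicate block, averaging, values without length normalization and leaving out each library.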

Additional observations from a re-analysis of the deposited data

Results flagged for a closer look

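Of 21 measures examined over the 8 libraries (the 10 gene levels, 7 log2 ratios and 4 family sums), 5 had a library that stood apart from the other 7 by more than Dixon's 95% limit. Chance sets about 1 in 20 such groups apart, and these 8 libraries come from 3 mice and are not independent. In library 1 of mouse 2, Aldoa was at 583 FPKM (nearest other library 696), Eno1 at 179 FPKM (237) and Ldha at 85.0 FPKM (110). That library was also the one with the fewest bases on transcripts, 1.31 gigabases, and the lowest summed FPKM, 295541. It had the highest Acta1 level, 12.6 FPKM, against 1.66 to 3.15 FPKM elsewhere. In library 2 of mouse 3, Pfkl was at 17.9 FPKM (nearest other library 23.6), and the log2 ratio of Pfkl to Pfkm was -2.45 (nearest -2.21). The part of depth or of other tissue in these values was not tested.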

How the results depend on the processing

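With each library left out in turn, the count of the 10 genes called ranged from 1 to 5 and that of all genes from 360 to 4097, against 3 and 3496. Equal sums gave 7 and 5698, and removal of the length trend gave 5 of the 10. No filter gave 2 of the 10 (without Ldhb) and 2441 genes of 19296. With a replicate block for the library number, 2 of the 10 (Aldoc and Ldhb, without Pfkp) and 3385 genes were called. Whether the numbers pair the samples cannot be told, since what they stand for is not given. Deviations were correlated by 0.00276 to 0.107 in 7 same-numbered pairs and by -0.13 to 0.06 in 14 other pairs. These values are not independent, since those with libraries 1 and 2 of mouse 3 mirror each other. Aldoc alone was called in all settings. The causes of the shifts below were not tested.

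The small difference of Aldoa between mouse 3 and the others (-0.01) turned to 0.0227 with the replicate block and ranged from -0.0575 to 0.0109 with a library left out, including 0.000173 without library 3 of mouse 1. The reversed values without libraries 2 and 3 of mouse 2 were 0.0109 and 0.0105. That of Eno1 (0.08) turned to -0.22 with equal sums, -0.0895 with the length trend removed and -0.0025 without library 1 of mouse 2, where other omissions reached 0.15. That of Ldha (0.18) turned to -0.12 and -0.0312 with equal sums and the trend removed. The difference of the Pfkp to Pfkl ratio (0.0014) turned to -0.0052 with a pseudocount of 1 and ranged from -0.11 to 0.11 with a library left out, and that of Pfkl to Pfkm (-0.14) ranged from -0.29 to 0.0068, the latter without library 2 of mouse 3. The mean log2 ratio of Pfkp to Pfkl (0.88) was 0.85 with a pseudocount of 1, 0.86 with the highest transcript and 0.85 to 0.92 with a library left out. The mean of Eno2 to Eno1 moved to -0.45 with Eno1b counted in. The difference of Aldoc to Aldoa stayed at 0.83 to 1.05 with a library left out, but its adjusted p was 0.0333 to 0.1 in these smaller designs, whose smallest p was 0.00952 or 0.0143. That of Pkm M1 to M2 (-0.71) ranged from -0.97 to -0.44. The Ldhb to Ldha difference ranged over 0.20 to 0.46 and passed without library 2 of mouse 1 (0.35, adjusted p = 0.0333). Without length normalization the shares were 53.9% for Aldoa, 41.6% for Eno1, 71.6% for Ldhb and 54.2% for Pfkm.

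FPKM gives no read counts, mice are 3, mouse 3 has 2 libraries, and the scaling alone moves the median gene from 0.02 to -0.23 on the log2 scale.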
